A study of Mus musculus with 6 samples.

Results

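The receptors CD28, CTLA-4 and PD-1 belong to one family of T cell surface proteins, and their genes Cd28, Ctla4 and Pdcd1 were followed here in lymphocytes of the mouse gut lining. All probe sets with the platform symbol of 1 of these genes were taken, which gave 3 of the 12488 probe sets on the array, 1 for each gene. They were 102237_at for Cd28 (Entrez gene 12487), 97718_at for Ctla4 (12477) and 98836_at for Pdcd1 (18566), and all 3 were among the 8299 probe sets tested. The study measured messenger RNA on Affymetrix arrays in intraepithelial lymphocytes (IEL), T cells that sit between the epithelial cells of the small intestine. The 3 groups were sorted subsets of untreated, freshly isolated IEL from C57BL/6 mice younger than 8 weeks. TCRab CD8ab cells carry the alpha-beta T cell receptor and the CD8 form of conventional T cells, TCRab CD8aa cells carry the same receptor type with the CD8 alpha homodimer, and TCRgd CD8aa cells carry the gamma-delta receptor with that homodimer. There were 2 experiments, each with its own pool of cells of 20 mice. That pool was the source of all 3 subsets, with 1 array for each. The spread between arrays is therefore that between pools and not between mice.

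CD28 is the main costimulatory receptor of conventional T cells. It binds CD80 and CD86 on antigen-presenting cells and adds a second signal, through PI3 kinase and other proteins, to that of the T cell receptor. CTLA-4 binds the same ligands more tightly and restrains the response, and PD-1 binds PD-L1 and PD-L2 and recruits phosphatases that damp the receptor signal. Conventional T cells carry CD28 before activation, whereas CTLA-4 and PD-1 appear mainly after it. IEL with the CD8 alpha homodimer are known for little CD28 on their surface.

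In the gene order of the mouse reference annotation (GRCm38.p6), Ctla4 is the next protein-coding gene after Cd28 and is followed by Icos, another costimulatory receptor of this family. Pdcd1 lies elsewhere on the same chromosome, between Neu4 and Fam174a. The promoter table held windows for 2 of the 3 genes. The 250 bases before the start of each are shown, as the promoters of the pair of inhibitory receptors, both of whose signals were highest in TCRab CD8ab cells. They are from RefSeq, build GRCm38.p6, at chr1:60908775-60909024 on the plus strand for Ctla4 and chr1:94052554-94052803 on the minus strand for Pdcd1. Capitals mark matches, on either strand, to the TATA box TATAAA, the GC box GGGCGG, the NFAT core GGAAA and the AP-1 motif TGANTCA.
Ctla4: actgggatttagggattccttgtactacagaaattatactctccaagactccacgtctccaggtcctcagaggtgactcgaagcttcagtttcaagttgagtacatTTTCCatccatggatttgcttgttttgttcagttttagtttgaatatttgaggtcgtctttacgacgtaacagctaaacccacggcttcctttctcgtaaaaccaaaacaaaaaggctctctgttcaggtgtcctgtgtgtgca
Pdcd1: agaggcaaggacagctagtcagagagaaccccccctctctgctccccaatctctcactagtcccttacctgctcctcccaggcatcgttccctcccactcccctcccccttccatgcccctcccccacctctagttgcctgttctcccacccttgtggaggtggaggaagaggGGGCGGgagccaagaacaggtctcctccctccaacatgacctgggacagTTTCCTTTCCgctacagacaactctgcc
The Ctla4 window held 1 match to the NFAT core, at base -144 from the start. The Pdcd1 window held 2 adjoining matches, at bases -28 and -23, and 1 GC box at base -77. Neither window held the TATA box or the AP-1 letters. Of 32851 promoter windows of this length, 55.6% held the NFAT core, 32.7% the GC box, 12.4% the TATA box and 6.75% the AP-1 motif. The matches describe the letters only, and binding was not measured.

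Values are MAS5 signals, the array software's summary of a probe set in array units, and their log2. Signals below 15.3 (log2 3.94, the 20th percentile of all values) were set to that floor. A signal of 56.4, the 40th percentile, was the filter for testing, which at least 2 arrays had to exceed. Arrays without detection calls give no sharp limit of detection, and signals near the floor are imprecise. Where RNA of a subset is lower, fewer cells with the transcript and less of it per cell cannot be told apart.

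Cd8b1, the beta chain of CD8, had signals of 17647 and 27590.5 in TCRab CD8ab cells in experiments 1 and 2, against 29.5 and 182 in TCRab CD8aa and 28.1 and 763 in TCRgd CD8aa. Trgv4, a gamma chain segment of the T cell receptor and the marker of gamma-delta cells on the list, had signals of 35231 and 19622 in TCRgd CD8aa. It was also well above the floor in the TCRab subsets, at 8289 and 6261 in TCRab CD8aa and 3015 and 1714 in TCRab CD8ab, so it was lower there but not absent. All 9 markers of the sorted cells lay above the floor on all 6 arrays. All 8 enterocyte markers on the array were highest in the TCRgd CD8aa sample of experiment 2, where they summed to a signal of 23730 against 708 to 1941 on the other 5 arrays. Mast cell markers summed to 681 there against 55.1 to 142. B cell markers summed to 1239 there against 694 to 1283, and markers of myeloid and dendritic cells to 1828 against 995 to 2820. As a sign of RNA quality, 3′ beta-actin probes gave 1.41 to 1.76 times the signal of 5′ ones on the arrays of experiment 1, but 40.4 to 52.2 times on those of experiment 2. RNA quality thus differed between the experiments and not in step with the subsets.

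All 3 genes had their highest signal in TCRab CD8ab cells, on both arrays, and lower signals in both CD8aa subsets. In the CD8aa subsets Cd28 signals were 28.5 to 86.5, on either side of the filter, and Pdcd1 signals were all below it, while the Ctla4 signal was 3008 or more on every array. Between TCRab CD8aa and TCRgd CD8aa none of the 3 passed the test. Calls were made only by limma with the experiment as a block. The main limma fit, which had no term for the experiment, called none of the 3 in any comparison. The blocked fit is reported beside it because the samples of 1 experiment came from the same mice.

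**Figure D1:**
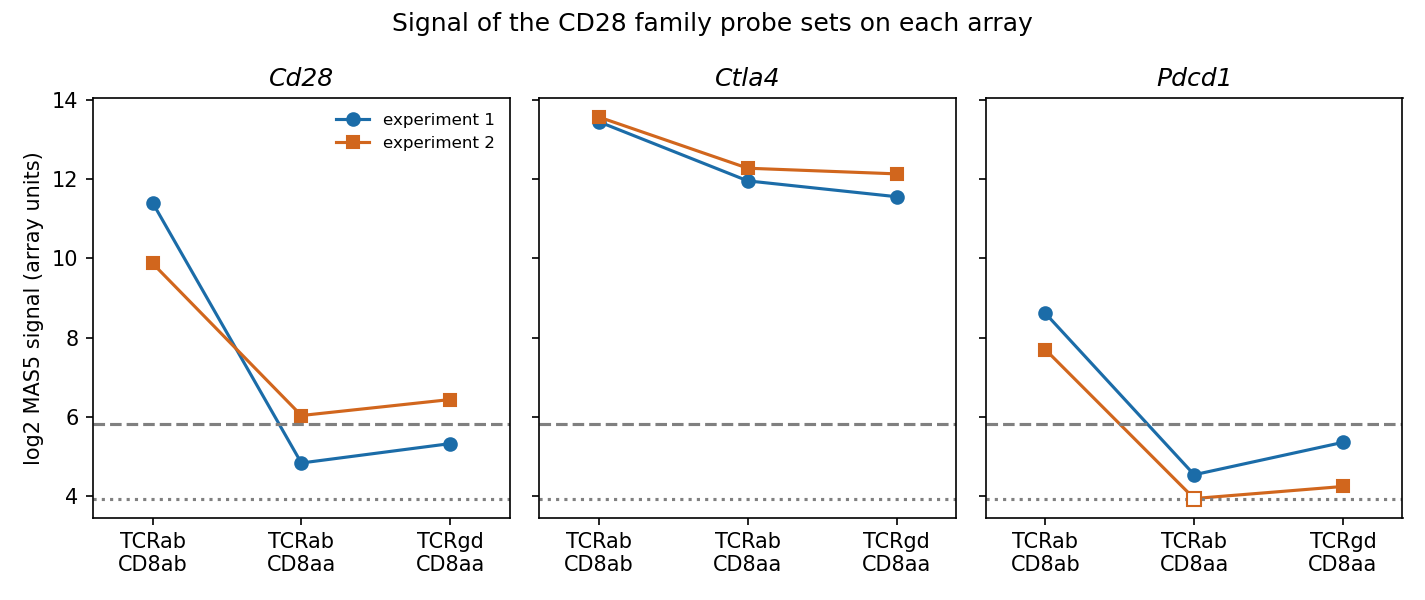
The vertical axis is the log2 MAS5 signal in array units and the horizontal axis the 3 subsets, with a panel for each gene. Circles and squares are the arrays of experiments 1 and 2, joined within an experiment. The dashed line is the filter (signal 56.4), the dotted line the floor (15.3), and the open square the 1 array at the floor. Both TCRab CD8ab arrays lie above all 4 arrays of the CD8aa subsets for each gene, and Ctla4 lies far above the filter throughout.

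Cd28, the costimulatory receptor, had signals of 2711 and 938 in TCRab CD8ab cells in experiments 1 and 2. Its signals were 28.5 and 65.4 in TCRab CD8aa and 40 and 86.5 in TCRgd CD8aa. Both CD8ab arrays were thus high and all 4 CD8aa arrays low, with no overlap, and the CD8aa arrays lay on either side of the filter, below it in experiment 1 and above it in experiment 2. The mean log2 signal was 10.64 ± 1.08 in TCRab CD8ab, 5.88 ± 0.79 in TCRgd CD8aa and 5.43 ± 0.85 in TCRab CD8aa (SD, n = 2). Over the 3 subsets the difference between experiments was 0.26 ± 0.54 (SE, limma adjusted p = 0.749), but its sign differed, since the CD8ab array was brighter in experiment 1 and the CD8aa arrays in experiment 2.

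Against TCRab CD8ab, Cd28 was lower in TCRab CD8aa by log2 -5.21 ± 0.67 (SE, n = 2), or 36.9-fold, with an adjusted p of 0.00845 in limma with the block and 0.322 without it. This was the fifth lowest of 8299 differences. In TCRgd CD8aa it was lower by log2 -4.76 ± 0.67 (SE, n = 2), or 27.1-fold, with a limma adjusted p of 0.0164 with the block and 0.533 without it. The difference was larger in experiment 1 (-6.57 in TCRab CD8aa and -6.08 in TCRgd CD8aa) than in experiment 2 (-3.84 and -3.44). The call in TCRgd CD8aa was lost without the first CD8ab array, the brightest for Cd28 (-3.42, limma adjusted p = 0.0535 with the block), and kept without the array with enterocyte markers (-5.40).

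Ctla4, the inhibitory partner of CD28 for the same ligands, gave a bright signal in all 3 subsets. The TCRab CD8ab arrays had signals of 11152 and 12116 in experiments 1 and 2. TCRab CD8aa had 3967 and 4951, and TCRgd CD8aa had 3008 and 4485. The CD8aa subsets thus overlapped with each other and both lay below TCRab CD8ab without overlap. The mean log2 signal was 13.50 ± 0.08 in TCRab CD8ab, 12.11 ± 0.23 in TCRab CD8aa and 11.84 ± 0.41 in TCRgd CD8aa (SD, n = 2). Of markers of CD4 and regulatory T cells, among them the cells best known for Ctla4, 4 of 5 were on the array. They summed to 216 and 398 in TCRab CD8ab, 364 and 240 in TCRab CD8aa and 329 and 384 in TCRgd CD8aa, and Cd4 itself ranged from 91.2 to 207. Their summed level thus overlapped between the subsets, and Foxp3 is not analysed here.

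Ctla4 was lower in TCRgd CD8aa than in TCRab CD8ab by log2 -1.66 ± 0.28 (SE, n = 2), or 3.16-fold, with a limma adjusted p of 0.0428 with the block and 1.000 without it. The experiments gave -1.89 and -1.43. In TCRab CD8aa the difference of -1.39 ± 0.28 (SE, n = 2), or 2.62-fold, had adjusted p of 0.0751 with the block and 1.000 without it in limma, and so did not pass in either. It was -1.49 and -1.29 in the experiments, with a 95% interval of -2.03 to -0.75 with the block. The call in TCRgd CD8aa ended without either CD8ab array (limma adjusted p = 0.0712 and 0.0804 with the block) or without the first TCRgd CD8aa array (0.0874), and held without the array with enterocyte markers (-1.84, adjusted p = 0.0220). The difference in TCRab CD8aa passed on leaving out either TCRgd CD8aa array (0.0132 and 0.0116) and with quantile normalization (-1.30, 0.0469). That 1 comparison passed and the other did not does not show that they differ.

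Pdcd1, which encodes PD-1, had signals of 391 and 207 in TCRab CD8ab cells in experiments 1 and 2. Its signals were 23.2 and 11.6 in TCRab CD8aa, the second under the floor, and 40.9 and 18.9 in TCRgd CD8aa. All 4 CD8aa arrays lay below the filter, both CD8ab arrays above it, and in each subset the array of experiment 2 was the dimmer. The probe set therefore passed the filter through TCRab CD8ab alone, where both arrays were high. A gene that enters in this way has to be lower in the other subsets, so the p-values of Pdcd1 against TCRab CD8ab are given as a description and support no call. The mean log2 signal was 8.15 ± 0.65 in TCRab CD8ab, 4.80 ± 0.79 in TCRgd CD8aa and 4.24 ± 0.42 in TCRab CD8aa (SD, n = 2, the last with 1 array at the floor).

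Against TCRab CD8ab, Pdcd1 was lower in TCRab CD8aa by log2 -3.92 ± 0.65 (SE, n = 2), at least 15.1-fold, with a limma adjusted p of 0.0309 with the block and 0.612 without it. The experiments gave -4.07 and -3.76, the latter a bound. In TCRgd CD8aa the difference was -3.36 ± 0.65 (SE, n = 2), or 10.2-fold, with a limma adjusted p of 0.0833 with the block and 1.000 without it, so it did not pass. It was -3.26 in experiment 1 and -3.45 in experiment 2, with a 95% interval of -4.83 to -1.88 with the block. In TCRab CD8aa the p no longer lay below the threshold without the filter (limma adjusted p = 0.522 with the block) or without any 1 of the 4 arrays of these subsets (limma adjusted p = 0.0862 to 0.177 with the block). The difference in TCRgd CD8aa passed without either TCRab CD8aa array (0.0356 and 0.0352) and had -3.18 (adjusted p = 0.190) without the array with enterocyte markers.

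With the block, Cd28 was thus called lower in TCRab CD8aa, where 0.301% of the 8299 probe sets tested were called lower and 0.819% in either direction. Pdcd1 is left out of this reading because of the way it passed the filter. In TCRgd CD8aa, Cd28 and Ctla4 were called lower, where 0.217% of all were and 0.554% in either direction. For Cd28 and Ctla4 the arrays of the subsets did not overlap in either comparison, which held, in the same direction, for 12.8% of all tested probe sets in TCRab CD8aa and 10.4% in TCRgd CD8aa. The median difference of all tested probe sets was -0.08 and -0.06. Both comparisons share the TCRab CD8ab arrays and are not independent of each other. No call for the 3 genes remained with the block when dim probe sets were not filtered out or when the intensity trend was left out of the variance model. Limma without the block called 0 probe sets (0%) in these comparisons, with 187 and 168 at unadjusted p under 0.05.

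**Figure D2:**
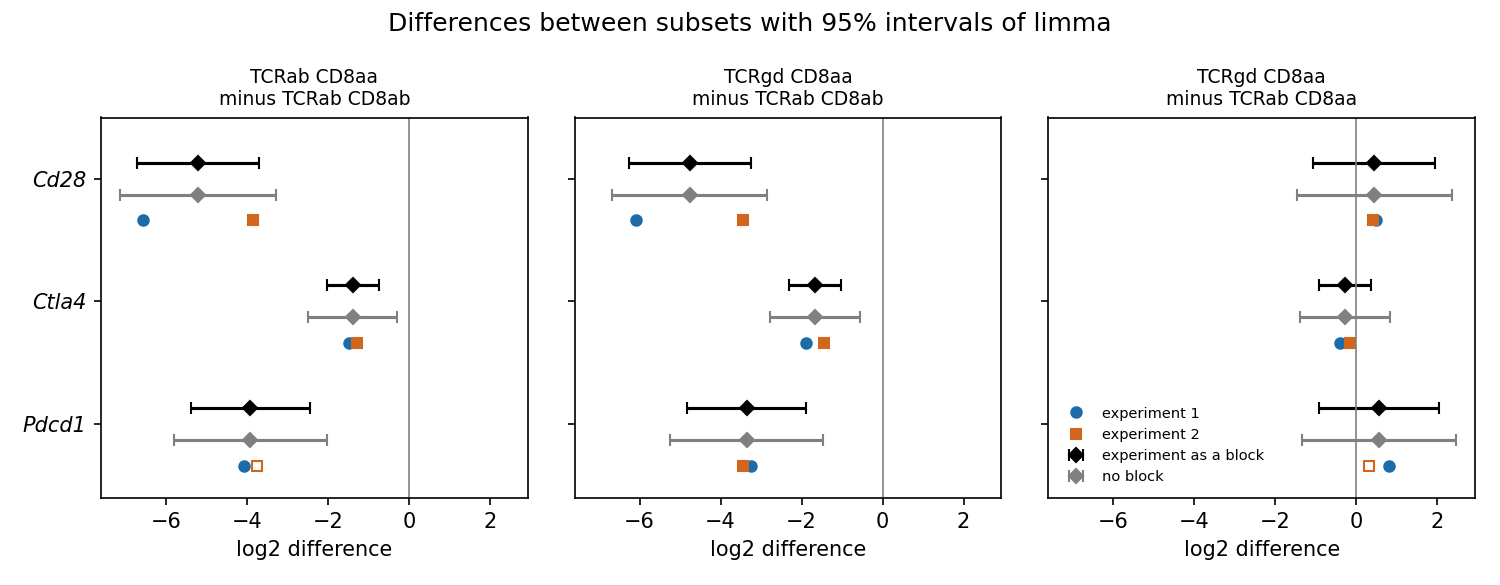
The horizontal axis is the log2 difference between 2 subsets, with a panel for each comparison and a row for each gene. Diamonds with bars are limma's estimates with 95% intervals, black with the experiment as a block and grey without it, and circles and squares are the differences within experiments 1 and 2, open where a signal at the floor makes them a bound. In both comparisons with TCRab CD8ab each interval lies below 0, before adjustment over all probe sets, and in the third panel every interval spans 0.

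The comparison of the CD8aa subsets asked whether receptor type went with a difference in these genes among cells with the same CD8 form. In TCRgd CD8aa against TCRab CD8aa the log2 difference was 0.45 for Cd28, with a 95% interval of -1.06 to 1.95 in limma with the block. It was -0.27 for Ctla4 (-0.91 to 0.37) and 0.56 for Pdcd1 (-0.91 to 2.04). None passed (limma adjusted p = 1.000 for each with the block), where 0.0241% of all tested probe sets were called in either direction. The intervals are wide for Cd28 and Pdcd1 and do not show equal levels. In both experiments Cd28 and Pdcd1 were the higher in TCRgd CD8aa, by 0.49 and 0.40 for Cd28 and by 0.82 and at least 0.30 for Pdcd1, and Ctla4 the lower, by -0.40 and -0.14. In the order of levels, TCRab CD8ab came first for each gene, and the other two subsets did not differ beyond their spread.

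Set against the TCRab CD8ab array of the same experiment, the signal in the CD8aa subsets was the following share. Cd28 stood at 1.05% in TCRab CD8aa and 1.48% in TCRgd CD8aa in experiment 1, and at 6.97% and 9.22% in experiment 2. Ctla4 stood at 35.6% and 27.0% in experiment 1 and at 40.9% and 37.0% in experiment 2. Pdcd1 stood at 5.94% and 10.5% in experiment 1 and in experiment 2 at no more than 7.38% in TCRab CD8aa, a bound set by the floor, and at 9.12% in TCRgd CD8aa. For Cd8b1, which the sort removes from these subsets, the share was 0.167% and 0.159% in experiment 1 and 0.660% and 2.77% in experiment 2. The share was the higher in experiment 2 for Cd28, Ctla4 and Cd8b1 in both subsets. For Cd28 and Ctla4 it lay above that of Cd8b1 in each of the 4 samples. For Pdcd1 it did so too, except in TCRab CD8aa of experiment 2, where the upper bound cannot show it. Whether carried-over CD8ab cells or RNA quality had a part in the residual signal was not tested.

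**Figure D3:**
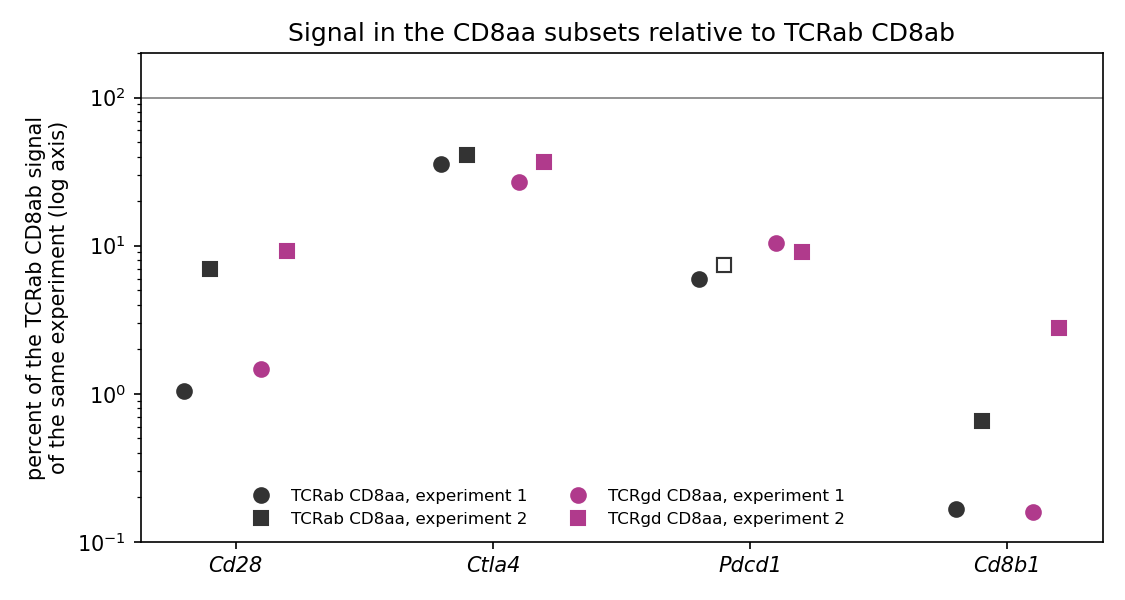
The vertical axis, on a log scale, is the signal in a CD8aa subset as a percent of the TCRab CD8ab signal of the same experiment, for the 3 genes and for Cd8b1. Dark points are TCRab CD8aa and magenta points TCRgd CD8aa, circles are experiment 1 and squares experiment 2. The open square of Pdcd1 is an upper bound, from a signal at the floor. Ctla4 lies between 27.0% and 40.9%, Pdcd1 at or below 10.5%, and Cd28 spreads from 1.05% to 9.22%.

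Of the other receptors of the family and their ligands, 4 of 9 were on the array and 2, Cd86 and Cd276, passed the filter. None was called in any comparison. Against TCRab CD8ab, 0.819% of all tested probe sets were called in either direction in TCRab CD8aa and 0.554% in TCRgd CD8aa. Icos, the gene next to Ctla4, had a signal of 1577 in TCRab CD8ab in experiment 1 but 24.8 in experiment 2. Its signals were 53.2 and 3.80 in TCRab CD8aa and 16.6 and 5.40 in TCRgd CD8aa. It was the highest in TCRab CD8ab in each experiment, as was its neighbour Ctla4, but only 1 array passed the filter and it was not tested. Cd86, a ligand of CD28 and CTLA-4 that T cells carry at low levels, had signals of 116 and 97.6 in TCRab CD8ab, 40.1 and 42.3 in TCRab CD8aa and 82.5 and 147 in TCRgd CD8aa, and its differences did not pass (-1.37 ± 0.58, limma adjusted p = 0.474, and 0.05 ± 0.58, adjusted p = 0.995, with the block). Cd80, the other ligand, lay between 29.7 and 58.9 on the 6 arrays. Cd276, an outlying member of the B7 family, had limma differences of -0.58 ± 0.87 and -0.55 ± 0.87 (SE, n = 2) and did not pass.

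Of 27 genes of CD28 signalling, 19 were tested. With the block 1 was called higher in TCRab CD8aa, where 0.518% of all tested probe sets were. In TCRgd CD8aa none was called, where 0.554% were in either direction. The median log2 difference was 0.09 in TCRab CD8aa and -0.34 in TCRgd CD8aa. Tec, a kinase that binds the tail of CD28, had signals of 639 and 458 in TCRab CD8ab, 2123 and 2036 in TCRab CD8aa and 1842 and 1471 in TCRgd CD8aa. It was higher in TCRab CD8aa by 1.94 ± 0.30 (SE, n = 2; limma adjusted p = 0.0208 with the block), and its difference of 1.61 ± 0.30 in TCRgd CD8aa did not pass (adjusted p = 0.0664). Prkcq, which encodes PKC theta, had -0.77 ± 0.38 and -1.07 ± 0.38, Pik3r1, a regulatory subunit of PI3 kinase, had 0.53 ± 0.31 in TCRab CD8aa, and Vav1, an exchange factor, -0.84 ± 0.43 in TCRgd CD8aa (SE, n = 2), none of which passed.

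Of 14 genes that respond to CD28 costimulation, 8 were tested, with medians of -0.49 in TCRab CD8aa and -0.60 in TCRgd CD8aa. None was called, where 0.819% and 0.554% of all tested probe sets were called in either direction. Ifng, the cytokine interferon gamma, came closest in TCRab CD8aa, with -2.20 ± 0.42 (SE, n = 2; limma adjusted p = 0.0559 with the block). Its difference was -1.01 ± 0.42 in TCRgd CD8aa. Tnf had -3.05 ± 0.92 and -1.87 ± 0.92 (SE, n = 2) with 1 array of each CD8aa subset at the floor, and Ccnd2, a D-type cyclin, had 1.03 ± 0.28 in TCRab CD8aa. Bcl2l1, the survival gene Bcl-xL, had 1.06 ± 0.51 in TCRgd CD8aa. Il2, the best known target of CD28, was not tested, as its signals did not pass the filter.

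Of 17 genes whose proteins carry or tune the signals of CTLA-4 and PD-1 or of related receptors, 14 were tested, with medians of -0.05 in TCRab CD8aa and 0.01 in TCRgd CD8aa. Only 1 passed, in TCRgd CD8aa, where 0.217% of all tested probe sets were called lower. That was Sh2d1a, the adaptor SAP of SLAM receptors, at 411 and 263 in TCRab CD8ab, 97.7 and 45.9 in TCRab CD8aa and 31.7 and 11.1 in TCRgd CD8aa, the last under the floor. It was lower in TCRgd CD8aa by -3.90 ± 0.56 (SE, n = 2; limma adjusted p = 0.0173 with the block), a bound, and had -2.30 ± 0.56 in TCRab CD8aa (adjusted p = 0.139). Of the CD8aa arrays only the first TCRab CD8aa array exceeded the filter, so Sh2d1a was tested through TCRab CD8ab. Its p-values are, as for Pdcd1, a description and support no call. Dgka, a diacylglycerol kinase that limits the receptor signal, had -1.48 ± 0.34 and -1.17 ± 0.34, Ppp2ca, a catalytic subunit of the phosphatase PP2A, 0.74 ± 0.32 in TCRab CD8aa, and Ppp2cb, the other such subunit, 0.50 ± 0.32 in TCRgd CD8aa (SE, n = 2), none of which passed. Ptpn11 and Ptpn6, the phosphatases SHP-2 and SHP-1, had 0.81 ± 0.62 and 0.62 ± 0.35 in TCRab CD8aa and did not pass.

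Of 18 transcription factors linked with Ctla4 or Pdcd1, 14 were tested, with a median of -0.63 in both TCRab CD8aa and TCRgd CD8aa, and 1 was called lower in each comparison, against 0.301% and 0.217% of all tested probe sets. It was Irf4, a factor induced by receptor signals, with signals of 1761 and 4887 in TCRab CD8ab, 125 and 663 in TCRab CD8aa and 183 and 1007 in TCRgd CD8aa. Within each experiment TCRab CD8ab was the highest, and no array of the CD8aa subsets reached the dimmer CD8ab array. Such a lack of overlap, in the same direction, held for 12.8% of all tested probe sets in TCRab CD8aa and 10.4% in TCRgd CD8aa. It was lower by -3.35 ± 0.36 and -2.77 ± 0.36 (SE, n = 2; limma adjusted p = 0.00345 and 0.0114 with the block). Nr4a1, an early response factor, had -0.98 ± 0.28 and -0.89 ± 0.28, and Prdm1, which encodes Blimp-1, 1.20 ± 0.35 and 1.25 ± 0.35 (SE, n = 2), and neither passed.

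Of 11 other costimulatory receptors 8 were tested, with medians of -2.54 in TCRab CD8aa and -1.87 in TCRgd CD8aa. In each comparison 3 passed and were lower, against 0.301% and 0.217% of all tested probe sets called lower. They were Cd5, Cd6 and Cd2 in both comparisons, the first 2 being modulators of the receptor signal and Cd2 an adhesion receptor. Cd5 had signals of 2748 and 7775 in TCRab CD8ab, 12.7 and 47.2 in TCRab CD8aa and 3.9 and 100 in TCRgd CD8aa. Of these CD8aa arrays only the second TCRgd CD8aa array exceeded the filter, so Cd5 was tested through TCRab CD8ab. Its p-values are, as for Pdcd1, a description and support no call. In TCRgd CD8aa Cd2 had signals of 16.6 and 101, against 3323 and 3171 in TCRab CD8ab, and in TCRab CD8aa 262 and 282. Cd6 had signals of 8982 and 3193 in TCRab CD8ab, 77.6 and 23.7 in TCRab CD8aa and 254 and 12.4 in TCRgd CD8aa. The last lay under the floor, so the Cd6 difference of -6.42 in TCRgd CD8aa was a bound. The list was made with earlier results of these data known, so its direction is no independent evidence. Coinhibitory receptors outside the family gave no call among the 6 of 12 genes that were tested, with medians of -0.27 in TCRab CD8aa and 0.30 in TCRgd CD8aa. Of all tested probe sets 0.819% and 0.554% were called in either direction. Cd244a, the receptor 2B4, had signals of 3114 and 5748 in TCRab CD8ab, 5874 and 11321 in TCRab CD8aa and 6952 and 11630 in TCRgd CD8aa. Its differences of 0.95 ± 0.28 and 1.09 ± 0.28 (SE, n = 2) did not pass (limma adjusted p = 0.258 and 0.213 with the block). Lag3, a receptor for MHC class II, had 0.68 ± 0.42 and 1.07 ± 0.42, and Cd160, a receptor of cytotoxic cells, -0.40 ± 0.28 and -0.82 ± 0.28. Between the CD8aa subsets no gene of any of these lists was called, where 0.0241% of all tested probe sets were in either direction.

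**Figure D4:**
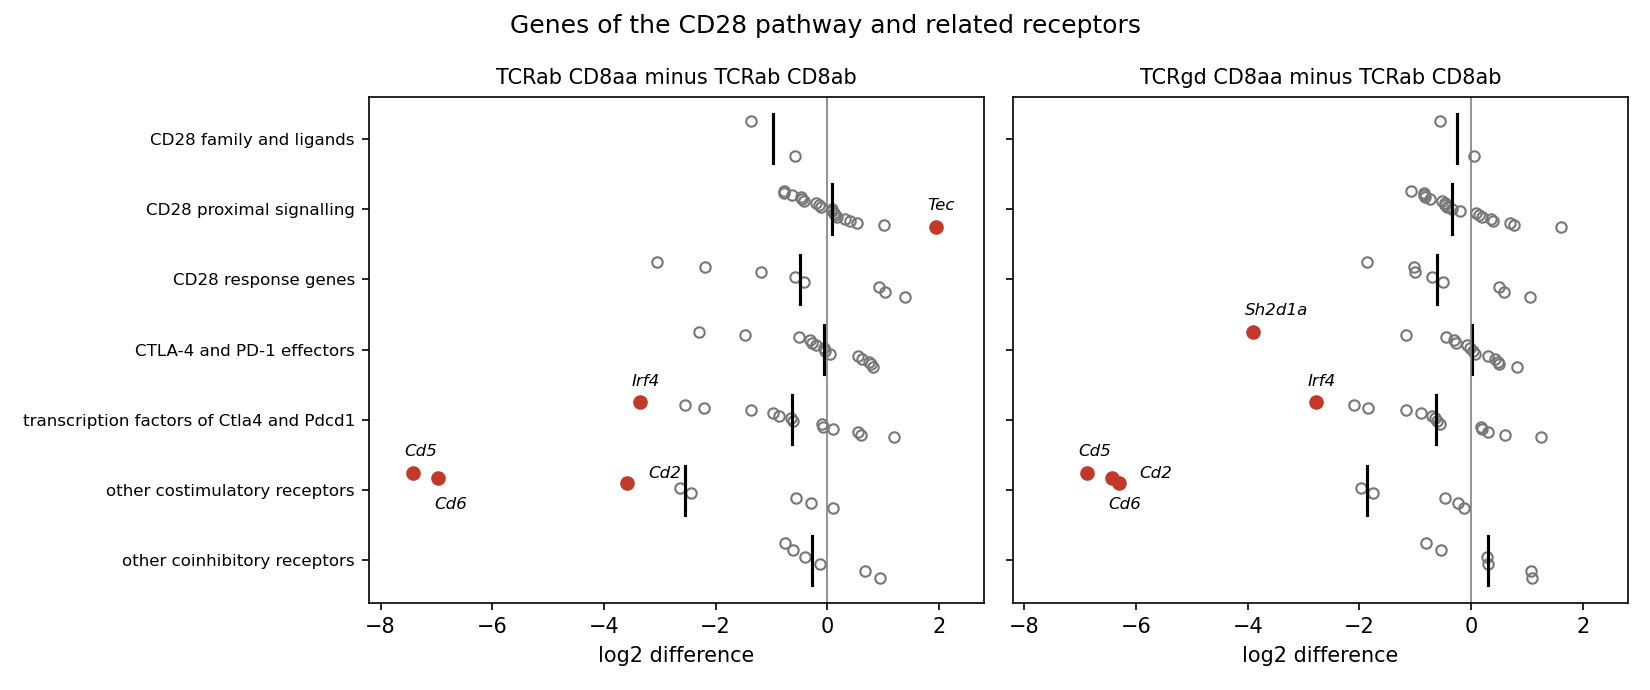
Each point is a tested gene of the list named at the left, at its log2 difference from TCRab CD8ab, for TCRab CD8aa in the left panel and TCRgd CD8aa in the right. Red named points passed adjusted p under 0.05 in limma with the block, and the black bar is the median of the list. The p-values of Cd5 and Sh2d1a support no call, because of the way these genes passed the filter. Only the list of other costimulatory receptors has its median below -1 in both panels, with Cd5, Cd6 and Cd2 at the far left.

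The genes whose pattern was most like each member were found over the 6 arrays by the root mean square difference in log2 signal, after the mean of its experiment was taken from each array. The measure is a description over 7398 other probe sets, and the 6 arrays share subsets and experiments. For Cd28 they were Klf2, a factor of circulating T cells (0.58), Gramd3 (0.70), Pdcd1 itself (0.89), Glipr2 (0.90) and Thy1, a surface protein of T cells (0.93), with Pearson's r from 0.927 to 0.982. For Pdcd1 they were Rgs10, a regulator of G protein signals (0.32), Irf4 (0.36), Lgals1, which encodes galectin-1 (0.43), Iigp1, an interferon-induced GTPase (0.44) and Tnfsf11, the cytokine RANKL (0.44), with r from 0.981 to 0.999. For Ctla4 they were Pclaf, a factor of DNA replication (0.11), Dusp2, a phosphatase of MAP kinases (0.15), Ptpn13, a tyrosine phosphatase (0.16), Kif23, a motor of cell division (0.16) and Ramp3, a partner of peptide receptors (0.17), with r from 0.977 to 0.997. The measure is in log2 units, and the differences of Ctla4 between subsets were the smallest of the 3 genes. Iigp1 was at the floor on every CD8aa array and Klf2 on both CD8aa arrays of experiment 2. Gramd3 was at the floor on the first TCRgd CD8aa array and Pdcd1 on the second TCRab CD8aa array. Values of likeness that involve these genes thus rest in part on the floor. Among themselves the 3 members had r of 0.959 for Cd28 and Ctla4, 0.965 for Cd28 and Pdcd1 and 0.946 for Ctla4 and Pdcd1. Probe sets high in TCRab CD8ab and low in both CD8aa subsets tend to a high r on this scale. These values were not set against those of all probe sets and show nothing particular to the family.

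**Figure D5:**
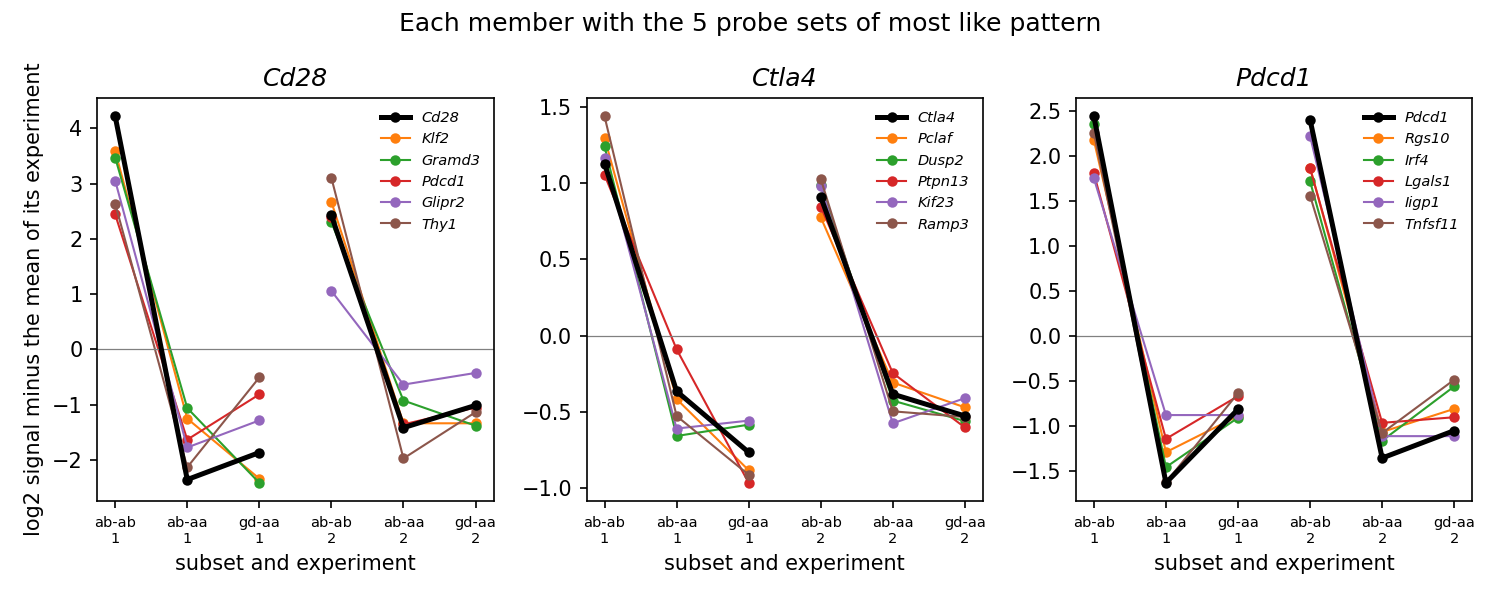
The vertical axis is the log2 signal minus the mean of its experiment and the horizontal axis the subset (ab-ab for TCRab CD8ab, ab-aa for TCRab CD8aa, gd-aa for TCRgd CD8aa) in experiments 1 and 2. The thick black line is the gene named above the panel and thin lines are the 5 probe sets nearest to it. The vertical scales differ between the panels. Each line is high in TCRab CD8ab and low in both CD8aa subsets, which is how the lines were chosen.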

How the data were processed

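Per the submitters' processing notes, the authors deposited MAS5 signal intensity (version not given), 1 linear value per probe set and array. Detection calls, probe sequences and scanner files were not used here. The 2% trimmed mean was about 500.4 on each array, and each array was scaled to their common mean, by factors of 0.999915 to 1.00006. Values below the 20th percentile (15.3) were raised to it before the log2 step. Of 12488 probe sets, 66 controls were left out, and 8299 with at least 2 arrays above the 40th percentile were tested, 7399 of them with 1 gene symbol (from the platform annotation, updated by Entrez gene).

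Each comparison was fitted on all 6 arrays with limma 3.58.1 (R 4.3.3), with the intensity trend and Benjamini-Hochberg adjustment over all tested probe sets, and adjusted p under 0.05 was a call. The main fit had no block. Standard errors, intervals and results for the gene lists are from the fit with the experiment as a block. Each experiment used 1 pool of mice for the 3 subsets, so its number pairs the arrays, and deviations from subset means correlated between subsets at r = 0.618, 0.713 and 0.603 across probe sets. The titles of the TCRgd samples write TCRgb, and their source descriptions were followed. For a gene of a list the brightest probe set was used. From each list up to 3 genes per comparison with the smallest p in the blocked fit were to be named. For the comparison between the CD8aa subsets, where no list gene was called, they and their differences are not given. Ptpn11, Ptpn6, Icos, Cd80 and Il2 were added for their roles after their values were seen. The members and lists were chosen with earlier results of these data known. The fits were run on simulated data. That check required only mean estimates near the simulated differences, and does not vouch for the p-values or calls.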

Additional observations from a re-analysis of the deposited data

How the results depend on the processing

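Without the block, limma called none of the 3 genes and 0 probe sets in any comparison under any of the other settings, arrays left out included. All differences from TCRab CD8ab kept their sign in all 30 alternatives. With the replicate block alone the log2 differences were as reported, and Cd28 (-5.21 and -4.76 in TCRab CD8aa and TCRgd CD8aa), Pdcd1 in TCRab CD8aa (-3.92) and Ctla4 in TCRgd CD8aa (-1.66) passed. These 4 also passed with the block and quantile normalization (-5.09, -4.82, -3.76 and -1.60), a floor at the 10th percentile (-5.21, -4.76, -4.12 and -1.66) or the 30th (-5.15, -4.76, -3.20 and -1.66), a constant of 16 in place of the floor (-4.74, -4.41, -3.20 and -1.66), a filter at the 60th percentile or only the 4 arrays compared (-5.21, -4.76, -3.92 and -1.66). None of the 4 passed with the block and no filter or no trend. Ctla4 in TCRab CD8aa passed with the block and quantile normalization (-1.30), the 60th percentile filter or only 4 arrays (-1.39), and Pdcd1 in TCRgd CD8aa with the 30th percentile floor (-2.998) or only 4 arrays (-3.36). For Pdcd1 the p-values below the threshold support no call in either comparison, because of the way it passed the filter. The 60th percentile lay above every Cd28 signal of the CD8aa subsets, the highest being 86.5. Under that filter Cd28 too was tested through TCRab CD8ab alone, and its p-values there support no call. Fits with the block on 4 or 5 arrays leave 1 residual degree of freedom, and their p-values rest almost wholly on the spread pooled over probe sets. The fit with the block on all 6 arrays leaves 2, so its p-values too rest in large part on that pooled spread.

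Leaving out each array in turn, with or without the block, Cd28 ranged from -6.55 to -3.86 in TCRab CD8aa and -6.10 to -3.42 in TCRgd CD8aa, Ctla4 from -1.56 to -1.23 and -1.95 to -1.37, and Pdcd1 from -4.37 to -3.46 and -3.91 to -2.80. Between the CD8aa subsets Cd28 ranged from -0.26 to 1.15 and turned negative without TCRab CD8aa replicate 1 (-0.15, and -0.26 with the block) or TCRgd CD8aa replicate 2 (-0.11 and -0.19). Ctla4 ranged from -0.56 to 0.017, the latter without TCRgd CD8aa replicate 1 and no block, and Pdcd1 from 0.0044 to 1.12. The cause was not tested.

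Called probe sets in TCRab CD8aa against TCRab CD8ab numbered 68 with the block, 72 with quantile normalization, 61 and 67 with the other floors, 73 with the constant, 90 with the stricter filter, 0 without a filter, 6 without the trend, 169 on 4 arrays, 109 at adjusted p under 0.10 and 22 to 182 with an array left out. In TCRgd CD8aa against TCRab CD8ab they were 46, 50, 45 and 46, 46, 55, 0, 3, 50, 65 and 30 to 193 in that order. Between the CD8aa subsets they were 2 with the block, 1 with quantile normalization or no trend, 0 without a filter, 2 in the other settings and 1 to 114 with an array left out. Without the block each of these counts was 0, with arrays left out too.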
